A study of Mus musculus with 6 samples.

Results

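Bdnf, Ntf3, Gdnf, Ntrk2, Ntrk3, Ngfr, Gfra1 and Ret encode neurotrophic ligands and the receptors that read them, and they were followed here in the mouse retina after injury of the optic nerve. The 8 genes were picked by symbol as the neurotrophins BDNF and NT-3, the ligand GDNF, the Trk receptors TrkB and TrkC, the shared neurotrophin receptor p75 and the 2 parts of the GDNF receptor. All 8 were found among the 35485 genes of the tables. RNA came from whole retinas of wild type C57BL/6 mice, 12 weeks old and male, 2 days after surgery. In the ONC group the nerve was crushed for 10 seconds at 2 mm behind the globe, and in the sham group it was exposed and left alone. Each group had 3 samples, and a sample pooled fixed amounts of RNA from 6 retinas of 6 mice, so that 18 retinas stood behind each group and p-values measured the spread between pools. Both groups were operated, and no unoperated retina was part of the comparison. The optic nerve holds the axons of retinal ganglion cells (RGCs), and RGCs are a small fraction of the cells in such a sample.

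Neurotrophins are secreted growth factors that keep neurons alive and shape their synapses. BDNF acts mainly through TrkB (Ntrk2) and NT-3 mainly through TrkC (Ntrk3), both of which are receptor tyrosine kinases, while p75 (Ngfr) binds all neurotrophins and, with greater affinity, their uncleaved precursors. GDNF binds GFRα1 (Gfra1), which is anchored to the outer face of the membrane, and the pair then engages the kinase RET. In the retina, BDNF reaches RGCs from the brain along the axon and also from within the eye, and added BDNF or GDNF delays RGC death after axonal injury. Müller glia, the radial glia of the retina, carry some of these receptors as well, p75 among them.

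Of the ligands, Bdnf has the most elaborate gene. It has several first exons, each with its own promoter, spliced to a common coding exon, and different stimuli use different starts. RefSeq (GRCm38.p6) listed 7 start sites for it on the plus strand of chromosome 2. The 60 bases before each are shown because the counts analysed below are per gene and do not tell these starts apart. The starts are numbered in genome order, not by the field's exon numbers. Capitals mark the letters TGACG, or their reverse complement CGTCA, which are the core of a cAMP response element and were searched after the other motifs had been looked at.

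Bdnf start 1, chr2:109674640-109674699: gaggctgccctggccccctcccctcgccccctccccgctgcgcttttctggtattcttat
Bdnf start 2, chr2:109676972-109677031: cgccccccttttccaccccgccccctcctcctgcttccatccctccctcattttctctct
Bdnf start 3, chr2:109692376-109692435: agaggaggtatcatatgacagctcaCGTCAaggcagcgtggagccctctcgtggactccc
Bdnf start 4, chr2:109692967-109693026: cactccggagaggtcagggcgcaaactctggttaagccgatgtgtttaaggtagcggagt
Bdnf start 5, chr2:109694349-109694408: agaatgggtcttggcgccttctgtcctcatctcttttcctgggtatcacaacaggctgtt
Bdnf start 6, chr2:109709323-109709382: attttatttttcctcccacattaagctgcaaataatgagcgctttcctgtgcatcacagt
Bdnf start 7, chr2:109722861-109722920: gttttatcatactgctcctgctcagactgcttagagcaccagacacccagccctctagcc

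The 7 stretches share little. Starts 1 and 2 are preceded by runs of pyrimidines, and start 3 holds the single CGTCA, 35 bases before the start. Over the whole windows of 250 bases before and 50 after a start, the GC content of the Bdnf starts ran from 38.7% to 58.0%, around the median of 52.7% for the 32851 windows of the table. The promoter of Ngfr was richer in GC, at 71.7%.

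RefSeq windows were at hand for 6 of the 8 genes, 14 windows in all, with Ntrk3 and Ret not matched. On both strands of these windows, the full cAMP response element TGACGTCA was found in 0 of 14, against 1.79% of all windows. Its core TGACG, which any full element also contains, was found in 2 of 14, Bdnf start 3 and the first Gdnf start, against 20.8% of all windows. The motif TGATGNAA was found in 1 of 14, 9 bases after Bdnf start 7, against 3.97%. The AP-1 motif TGANTCA, bound by FOS and JUN proteins, was also found in 1 of 14, against 7.81%. It lay 152 bases before Bdnf start 2, shown in capitals in the 250 bases before that start.

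Bdnf start 2, chr2:109676782-109677031: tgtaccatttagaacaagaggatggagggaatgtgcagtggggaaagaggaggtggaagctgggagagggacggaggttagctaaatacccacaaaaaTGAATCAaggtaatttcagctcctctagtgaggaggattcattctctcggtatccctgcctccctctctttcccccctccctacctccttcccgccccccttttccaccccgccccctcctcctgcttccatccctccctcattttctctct

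The samples differed between groups in ways that touch every gene below. Exon reads per sample were 17343945 to 18349331 in sham and 20019818 to 20358008 in ONC, and exons held 70.9% to 76.6% of the reads on genes in sham against 78.5% to 80.4% in ONC. Neither measure overlapped between groups (two-sided p = 0.1 by an exact permutation test, which cannot go lower with 3 against 3). Of 10 markers of RGCs 8 were lower in ONC, Pou4f1, Pou4f2, Rbpms, Nefl, Nefm, Nefh, Sncg and Thy1, whereas Slc17a6 was higher. Their summed RPKM, the deposited measure of exon reads corrected for exon length and for the reads on all genes, was 435 to 453 in sham and 321 to 339 in ONC. In whole retina, fewer cells of a type and less RNA per cell cannot be told apart. Of the markers of Müller glia 0 of 8 passed edgeR's test (summed RPKM 1106 to 1230 in sham and 1240 to 1253 in ONC), and of those of microglia Itgam and C1qa of 7 were higher (9.02 to 11.3 and 13.9 to 16.4). Markers of astrocytes summed to 10.4 to 13.1 and 13.0 to 17.2, with 0 of 3 called. In amacrine cells 0 of 8 passed, in bipolar cells 0 of 6, in vessels 0 of 6, in pigment epithelium 0 of 5, in Schwann cells and oligodendrocytes 0 of 3 and in muscle 0 of 2, while 1 gene moved in each of horizontal cells (Calb1, lower), rods and cones (Pde6b, higher) and lens (Cryaa, higher; lens sum 3.18 to 22.4 in sham and 25.0 to 31.1 in ONC). No listed marker was at 0 in every sample. The part that these differences play in any result below was not tested, except where stated.

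No gene of the 8 passed the test for a change of its exon reads, which mostly stand for finished messenger RNA. Total exon reads were compared with edgeR's quasi-likelihood test, and a gene was called where its p, adjusted over all tested genes by Benjamini and Hochberg (FDR), was under 0.1. With this rule 0 of the 6 genes with enough reads to test were called, against 6.09% of all 13670 tested genes (833, of which 325 were higher and 508 lower in ONC). Ntrk2 alone had an unadjusted p under 0.05, beside 2286 of all 13670 tested genes. DESeq2's Wald test and limma on log2 RPKM also called 0 of the 6. Division by all reads on genes in place of TMM normalization moved the median log2 fold change over all tested genes from 0.01 to 0.13 and the calls to 1507 higher and 223 lower, still with 0 of the 6 genes called. Normalized counts of ONC and sham did not overlap for 21.8% of all tested genes and for 0 of these 6.

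**Figure D1:**
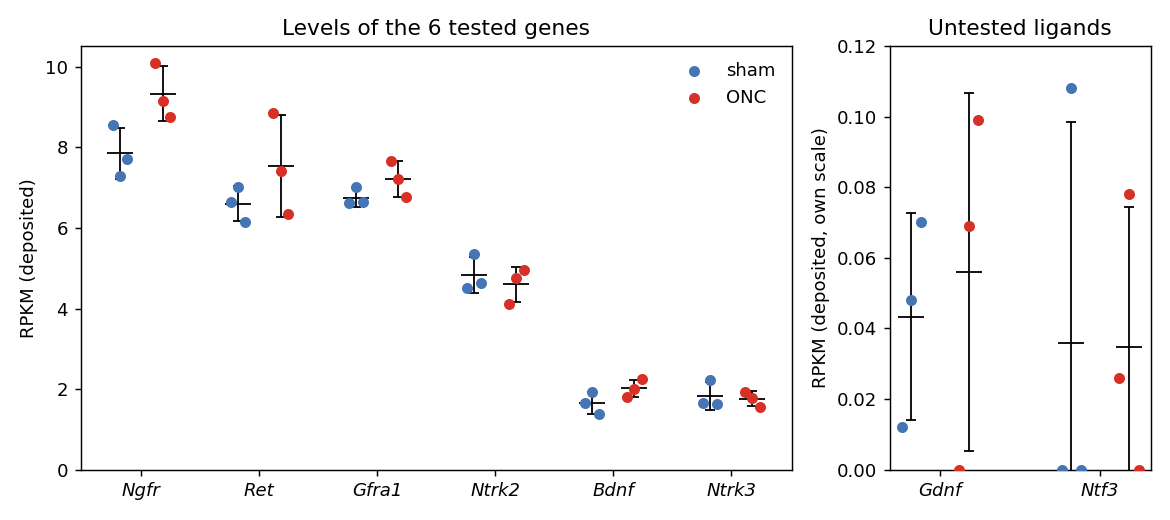
RPKM of the 8 genes as deposited (y axis) in each of the 3 sham (blue) and 3 ONC (red) samples, with bars for mean ± SD; Gdnf and Ntf3 are on a scale of their own at the right. The 6 tested genes lie between 1.37 and 10.1 RPKM. In RPKM the groups are apart for Ngfr alone, which overlaps in normalized counts. The share of all genes apart in RPKM was not counted.

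Of the 3 ligands among the 8 genes, BDNF was the 1 with enough reads to test. Bdnf (chromosome 2, 109674700 to 109727043 in the files' coordinates, which match GRCm38) had 210, 254 and 184 exon reads in sham, listed here and below by replicate number, and 251, 274 and 319 in ONC. Its RPKM was 1.67, 1.93 and 1.37 in sham and 1.81, 2.01 and 2.24 in ONC. The 2 highest values were ONC samples, but sham replicate 2 stood above ONC replicate 1, so the groups overlapped. Mean RPKM was 1.66 ± 0.281 (SD, n = 3) in sham and 2.02 ± 0.217 in ONC. The log2 fold change was 0.17 (SE 0.15, 95% interval -0.14 to 0.47), which did not pass edgeR's test (adjusted p = 0.604). The files annotate 4 transcripts for Bdnf and the table of promoters 7 starts, and a count per gene cannot show whether 1 of the starts printed above rose while another fell.

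NT-3 and GDNF transcripts were near the limit of detection in whole retina. Ntf3 (chromosome 6, 126101412 to 126166744) had 0, 4 and 0 exon reads in sham and 1, 3 and 0 in ONC. The sums were 4 and 4, each with a 95% Poisson interval of 1.09 to 10.2 that covers counting error only. Gdnf (chromosome 15, 7811011 to 7837575) had 1, 4 and 6 exon reads in sham and 0, 6 and 9 in ONC, or 11 (5.49 to 19.7) and 15 (8.40 to 24.7). Both groups spanned from almost no reads to a few for each gene. A count of 3 reads is worth 0.0747 to 0.0843 RPKM for Ntf3 and 0.0330 to 0.0372 RPKM for Gdnf. These values mark a floor for presence and not the smallest difference between groups that could be seen. The intervals of the sums are wide and overlap, so larger differences could also have been missed at this depth. Without the limit on RPKM, edgeR gave adjusted p = 0.974 for Ntf3 and 0.960 for Gdnf.

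The 2 Trk receptors had log2 fold changes below 0 on exon reads and did not pass the test. Ntrk2, which encodes the BDNF receptor TrkB, lies on chromosome 13 from 58806596 to 59129976. It had 1027, 1265 and 1122 exon reads in sham and 1029, 1167 and 1268 in ONC. Scaled to library size by TMM (CPM), these were 58.8, 69.6 and 66.1 in sham and 52.0, 57.0 and 61.0 in ONC. Sham replicate 1 lay below ONC replicate 3, while the other two sham samples lay above every ONC sample. By the fit Ntrk2 was at -0.19 on the log2 scale (SE 0.08, 95% interval -0.37 to -0.02). Its unadjusted p was 0.0320 and its adjusted p 0.241 by edgeR. The RPKM of Ntrk2 was 4.84 ± 0.445 (SD, n = 3) in sham and 4.60 ± 0.434 in ONC. TrkB exists as a full-length kinase, typical of neurons, and as a truncated form without the kinase, typical of glia. The files annotate 2 transcripts for Ntrk2 and count them together, so a shift from one form to the other was not measured.

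Ntrk3, which encodes TrkC, lies on chromosome 7 from 78192114 to 78577838. It had 196, 277 and 205 exon reads in sham and 252, 230 and 210 in ONC. Its RPKM was 1.65, 2.24 and 1.62 in sham and 1.93, 1.79 and 1.57 in ONC. The highest and the second lowest of the 6 samples were both sham samples. On the log2 scale Ntrk3 differed by -0.18 (SE 0.16, 95% interval -0.51 to 0.15; adjusted p = 0.606). When all reads on the gene were counted, introns included, both Trk receptors passed the limit, Ntrk2 at -0.31 (adjusted p = 0.0605) and Ntrk3 at -0.70 (adjusted p = 0.0352), against 8.36% of all genes called on these reads. Over all alternatives to the main fit, leaving out a sample aside, the adjusted p of Ntrk2 ran from 0.0605 to 0.762 and that of Ntrk3 from 0.0352 to 0.897. The intron reads behind this are described further on.

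Per length of exon, the receptor p75 had the highest level of the 8 genes. In CPM, which is not corrected for length, Ret and Ntrk2 stood above Ngfr. Their means were 65.7 and 64.8 against 36.4 in sham, and 69.1 and 56.6 against 39.7 in ONC. Ngfr (chromosome 11, 95568818 to 95587698) had 670, 596 and 644 exon reads in sham and 870, 777 and 775 in ONC. Its RPKM was 8.55, 7.30 and 7.72 in sham and 10.1, 9.16 and 8.76 in ONC, or 7.86 ± 0.637 (SD, n = 3) and 9.34 ± 0.678. On this scale the lowest ONC sample was above the highest sham sample. The share of all genes apart in RPKM was not counted. On log2 RPKM (pseudocount 0.1), limma called 978 of all tested genes higher in ONC and 143 lower. As TMM-normalized CPM the values of Ngfr were 38.4, 32.8 and 37.9 in sham and 43.9, 37.9 and 37.3 in ONC, and they overlapped. The separation in RPKM thus went with the number by which the reads were divided, which in RPKM includes the intron reads. The log2 fold change was 0.13 (SE 0.10, 95% interval -0.08 to 0.33; adjusted p = 0.547), and over the alternatives other than leaving out a sample it ran from 0.12 to 0.25 with adjusted p from 0.149 to 0.837.

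The 2 parts of the GDNF receptor were transcribed at like levels although their ligand was barely detected. Gfra1 (chromosome 19, 58236692 to 58454466) had 490, 542 and 524 exon reads in sham and 626, 578 and 566 in ONC. Its RPKM was 6.61, 7.02 and 6.64 in sham and 7.67, 7.20 and 6.77 in ONC, with sham replicate 2 above ONC replicate 3. Its log2 fold change was -0.03 (SE 0.10, 95% interval -0.24 to 0.19; adjusted p = 0.925), and its sign turned positive when the reads were divided by all reads on genes (0.0945). No direction can be given for Gfra1 in these samples.

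Ret (chromosome 6, 118151748 to 118197744), the signalling kinase of the complex, was the most variable of the receptors in ONC. It had 1123, 1235 and 1103 exon reads in sham and 1645, 1354 and 1210 in ONC. Its RPKM was 6.65, 7.02 and 6.14 in sham and 8.86, 7.41 and 6.35 in ONC, or 6.61 ± 0.444 (SD, n = 3) and 7.54 ± 1.26. ONC replicate 1 stood well above the other 5 samples, which overlapped. Ret was at 0.07 on the log2 scale (SE 0.10, 95% interval -0.13 to 0.28; adjusted p = 0.769), and without ONC replicate 1 it was -0.0808. For all 8 genes, every exon read was uniquely mapped.

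**Figure D2:**
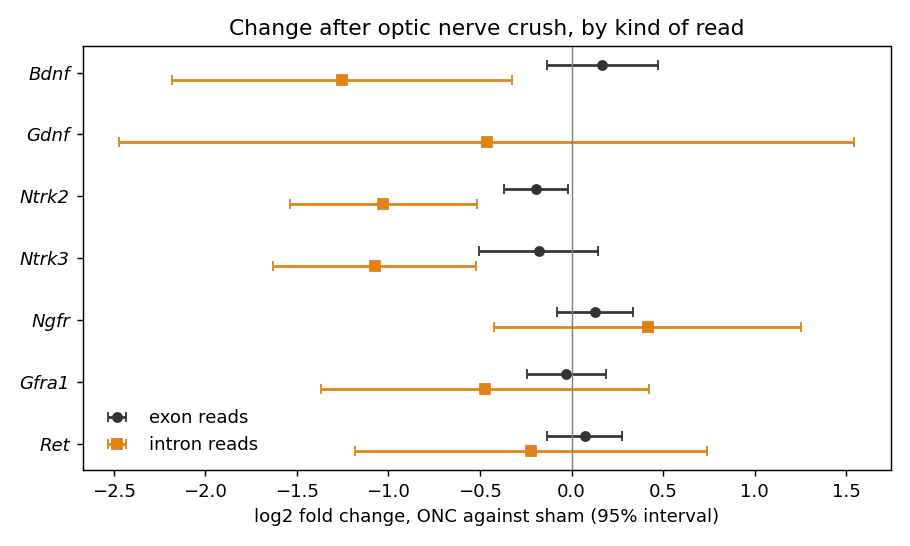
Log2 fold change of ONC against sham (x axis, points with 95% intervals) for exon reads (black circles) and intron reads (orange squares); Ntf3 was tested on neither and Gdnf on intron reads alone. Exon changes stay between -0.19 and 0.17, while the intron reads of Bdnf, Ntrk2 and Ntrk3 lie at -1.25, -1.03 and -1.07.

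Per length of exon, and over both groups, the 6 tested genes fell into 4 tiers. Ngfr had the highest mean level of the 6 samples, at 8.60 RPKM, and exceeded Ret in 6 of 6 samples. Ret and Gfra1 followed at 7.07 and 6.99 RPKM and could not be ordered, since Ret was the higher in 4 of 6 samples and their ranges overlapped. Ntrk2, at 4.72 RPKM, was below Gfra1 in 6 of 6 samples and above Bdnf in 6 of 6. Bdnf and Ntrk3 formed the lowest of the tested tiers, at 1.84 and 1.80 RPKM, with Bdnf higher in 3 of 6 samples. Below them, Ntf3 did not exceed 0.108 RPKM in any sample and Gdnf did not exceed 0.0990 RPKM. In every sample Ntrk2 thus stood above Bdnf, Ntrk3 above Ntf3, and Gfra1 and Ret above Gdnf. Such levels are averages over all cells of the retina and do not say which cell holds the transcript.

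Reads on introns come largely from transcripts that are not yet spliced, and they do not enter the exon counts. They were taken as total gene reads minus total exon reads and compared with a second edgeR fit over 13391 genes. An exon that the files do not annotate also counts as intron here. In this readout the Trk receptor genes fell. Of the 7 genes with enough intron reads Ntrk2 and Ntrk3 were called, against 2.70% of all genes tested (61 higher and 300 lower in ONC).

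Ntrk2 had 205, 269 and 355 intron reads in sham and 150, 95 and 145 in ONC, so that every ONC sample was below every sham sample. Scaled to the sum of intron reads of each sample, Ntrk2, Ntrk3 and Bdnf of the 7 genes did not overlap between groups, against 22.0% of all 13391 genes. All 3 had ONC below sham, whereas over all genes ONC was below sham in 682 and above it in 2258. For Ntrk2 the log2 fold change was -1.03 (SE 0.24, 95% interval -1.54 to -0.52, adjusted p = 0.0678 by edgeR). Ntrk3 had 207, 284 and 441 intron reads in sham and 169, 119 and 131 in ONC, again without overlap. Its log2 fold change was -1.07 (SE 0.26, 95% interval -1.63 to -0.52; adjusted p = 0.0713). Sham replicate 3 was the highest sample for both genes, as it was for intron reads in all. Both calls needed most of the samples. They were kept without sham replicate 1 or ONC replicate 1, but without sham replicate 2 the adjusted p was 0.127 for Ntrk2 and 0.129 for Ntrk3, without sham replicate 3 it was 0.160 and 0.188, without ONC replicate 2 it was 0.324 and 0.335, and without ONC replicate 3 it was 0.216 and 0.246. The fold changes ran from -1.28 to -0.84 for Ntrk2 and from -1.37 to -0.79 for Ntrk3 when 1 sample at a time was left out.

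Both genes are long, and intron reads of long genes were lower in ONC in general. Ntrk2 spans 323381 bases and Ntrk3 385725. Of the 2163 tested genes that span at least 100 kb, 204 were called lower on intron reads (9.43%) and 0 higher by edgeR, and 85.3% had a log2 fold change below 0, with a median of -0.42. For genes of 10 to 100 kb the median was 0.02, with 27 called higher and 94 lower of 8346. For genes under 10 kb it was 0.32, with 34 called higher and 2 lower of 2882. Among the long genes, 5.78% were as low as Ntrk2 or lower and 4.58% were as low as Ntrk3 or lower, which places both toward the low end of their class. Gfra1, also a long gene, was in the middle of it at -0.47 (adjusted p = 0.607), with 44.8% as low or lower. On exon reads the long genes had a median log2 fold change of -0.09. The part of gene length and of the intron content of the libraries in the change of Ntrk2 and Ntrk3 was not tested.

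**Figure D3:**
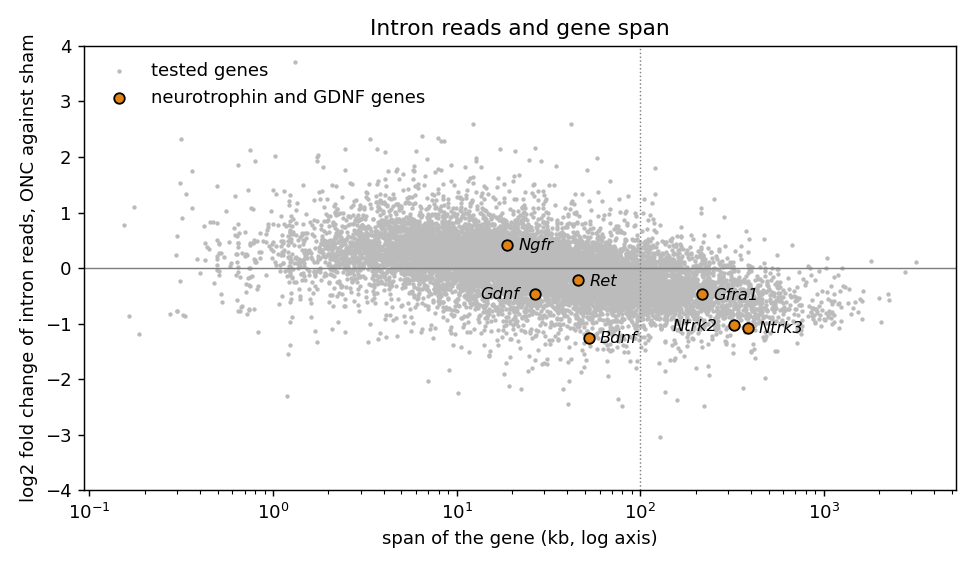
Log2 fold change of intron reads, ONC against sham (y axis), against the span of each gene in kb (log x axis) for the tested genes (grey; 1 gene lies outside the axis) and the 7 tested neurotrophin and GDNF genes (orange); the dotted line is at 100 kb. The cloud slopes down with span, and Ntrk2 and Ntrk3 lie in the low part of its long genes, with Gfra1 in the middle of these.

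Bdnf showed the largest intron change in size but did not pass the test. It had 34, 45 and 41 intron reads in sham and 13, 20 and 16 in ONC, 1 of the 3 genes whose groups did not overlap against 22.0% of all genes tested. Of all genes, 682 had ONC below sham, as Bdnf did, and 2258 had ONC above sham. For Bdnf the log2 fold change was -1.25 (SE 0.44, 95% interval -2.18 to -0.32, unadjusted p = 0.0117 and adjusted p = 0.162 by edgeR). When the intron reads were scaled by the exon reads it was -1.50 and was called (adjusted p = 0.0681), and over all alternatives other than leaving out a sample the adjusted p ran from 0.0681 to 0.214. That scaling moved the median log2 fold change over all 13391 genes to -0.22, with 23 called higher and 1274 lower. Bdnf spans 52344 bases, less than the 100 kb that set the long genes. Its exon reads were at 0.17 and did not pass edgeR's test (adjusted p = 0.604). The part of gene length in its intron change was not tested. All starts printed above but the first lie inside the gene, and a first exon that the files do not annotate would add to these reads.

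The remaining genes had intron reads that overlapped between groups. Ngfr had 25, 61 and 55 in sham and 78, 54 and 45 in ONC, with a log2 fold change of 0.42 (SE 0.39, adjusted p = 0.632). Ret had 26, 38 and 55 in sham and 46, 19 and 31 in ONC (-0.22, SE 0.45, adjusted p = 0.843). Gdnf had 9, 0 and 29 in sham and 11, 4 and 11 in ONC (-0.46, SE 0.94, adjusted p = 0.843), more in most samples than on its exons. Ntf3 had 0 to 2 in sham and 0 to 6 in ONC and was not tested.

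Expressed as the share of all reads on the gene, introns held 51.4%, 50.6% and 68.3% of the Ntrk3 reads in sham and 40.1%, 34.1% and 38.4% in ONC. For Ntrk2 the share was 16.6%, 17.5% and 24.0% in sham and 12.7%, 7.53% and 10.3% in ONC. For Bdnf it was 13.9%, 15.1% and 18.2% in sham and 4.92%, 6.80% and 4.78% in ONC. In all 3 genes the highest ONC share was below the lowest sham share (two-sided p = 0.1 each by an exact permutation test, the smallest possible), as it was for the libraries as a whole. For Ngfr, Gfra1 and Ret the shares overlapped (exact p = 1, 0.4 and 0.3). The shares did not overlap for 19.5% of all 13391 genes, with ONC below sham in 2344 of these and above it in 272.

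**Figure D4:**
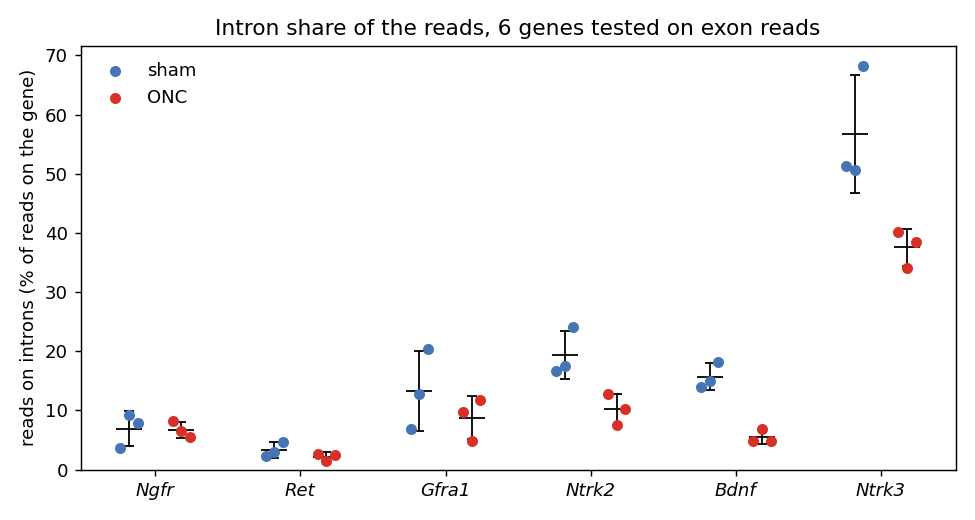
Share of reads on introns, in % of all reads on the gene (y axis), in each sham (blue) and ONC (red) sample, with bars for mean ± SD. Of the 6 genes plotted Ntrk3 has the highest shares, 34.1% to 68.3%, and ONC lies below sham for Ntrk2, Bdnf and Ntrk3.

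The other ligands and receptors of both families that are named here gave no call by edgeR's test. Ntf5, which encodes NT-4, the other TrkB ligand, had 8 exon reads in all sham samples together and 5 in all ONC samples. Of the GDNF relatives, Nrtn was at -0.03 (adjusted p = 0.964) with a sign that turned positive on division by all reads on genes (0.0837), and Pspn at -0.34 (adjusted p = 0.786). Artn had 25 and 45 exon reads and its receptor Gfra3 10 and 15, too few to test. Gfra2, the receptor of neurturin, had the same order of abundance as Gfra1 (mean RPKM 6.16 in sham and 5.78 in ONC) and was at -0.21 (SE 0.11, adjusted p = 0.342). Gfra4 was at -0.23 (adjusted p = 0.490).

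Around the receptors, 136 further genes had been listed by role in 6 lists. Of these, 121 could be tested, and 4 were higher and 4 lower in ONC, or 6.61% beside the 6.09% called over all genes. Their median log2 fold change was -0.03, beside 0.01 over all tested genes. Hras, a member of the list of the Ras pathway, was not analysed here.

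In the list of further ligands, receptors and sortilin-type co-receptors 1 of 10 tested genes was called, with a median of -0.20. This was Sorcs3, a sortilin relative (-0.46, SE 0.15, adjusted p = 0.0976). It was not called on division by all reads on genes (-0.34, adjusted p = 0.197), without any single sham replicate or without ONC replicate 2 or 3, with values of -0.50, -0.42 and -0.48 without sham replicates 1, 2 and 3 and -0.45 and -0.43 without ONC replicates 2 and 3. Limma on log2 RPKM did not call it (adjusted p = 0.297 and 0.282 with pseudocounts of 0.1 and 1). Nor did edgeR on exon-exon reads (adjusted p = 0.169) or with the replicate number as a block (adjusted p = 0.150).

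In the list of enzymes that cut proBDNF and other precursors, and of their inhibitors, 1 of 14 rose and 2 fell, with a median of -0.01. Plat encodes tissue plasminogen activator, which starts the plasmin step that cleaves proBDNF outside the cell. It had 204, 190 and 180 exon reads in sham and 473, 436 and 476 in ONC, with all ONC samples far above all sham samples (log2 fold change 1.06, SE 0.13, adjusted p = 2.14e-05). Mmp9, a matrix protease that can also cleave proBDNF, went the other way, with 408, 391 and 408 reads in sham and 292, 278 and 281 in ONC (-0.72, SE 0.12, adjusted p = 0.000918). Pcsk2, a convertase of the secretory pathway, was at -0.44 (SE 0.10, adjusted p = 0.0172). At least 90.6% of its exon reads in each sample were uniquely mapped, and it was not called by limma on log2 RPKM (adjusted p = 0.132 and 0.131 with pseudocounts of 0.1 and 1).

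Of the adapters that bind activated Trk and RET receptors, 1 of 30 rose and 1 fell, with a median of -0.07. Dok5, an adapter that binds Ret and TrkC, had 152, 172 and 133 reads in sham and 279, 301 and 368 in ONC (0.84, SE 0.15, adjusted p = 0.00194). Shc3, a neuronal Shc adapter of Trk receptors, had 106, 133 and 126 reads in sham and 106, 71 and 56 in ONC (-0.86, SE 0.25, adjusted p = 0.0654). Per library size the ONC samples of Shc3 lay below the sham samples but were more spread than these (5.35, 3.47 and 2.69 CPM against 6.07, 7.31 and 7.42), and the call was lost without sham replicate 2 (-0.81), sham replicate 3 (-0.80), ONC replicate 2 (-0.79) or ONC replicate 3 (-0.66). The call of Shc3 was also lost on exon-exon reads (-0.73, adjusted p = 0.198 by edgeR).

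Of the proteins that act with p75, 0 of 21 passed edgeR's test, with 6 at an unadjusted p under 0.05 and a median of -0.02, while DESeq2 called 1, limma 2 and edgeR after division by all reads on genes 4, all of them higher in ONC. Of the Ras, ERK, PI3K and Akt pathway, 0 of 30 passed edgeR's test, with 4 at an unadjusted p under 0.05 and a median of 0.04, while DESeq2 called 0 and both limma and edgeR after division by all reads on genes called 1, higher in ONC. By edgeR, 2286 of all 13670 tested genes had an unadjusted p under 0.05. Over these 13670 genes most calls of limma and after division by all reads were also higher in ONC. Limma called 978 higher and 143 lower (pseudocount 0.1), division by all reads 1507 and 223, and DESeq2 354 and 578.

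Among genes that neurotrophins are known to induce in neurons 2 of 17 rose and 0 fell, with a median of 0.21, the highest of the 6 lists. Egr1, an immediate early transcription factor, had 367, 368 and 278 reads in sham and 836, 735 and 866 in ONC (1.05, SE 0.11, adjusted p = 7.34e-06). Vgf, a secreted neuropeptide precursor, had 729, 851 and 781 reads in sham and 1791, 1555 and 1446 in ONC (0.81, SE 0.09, adjusted p = 1.15e-05). In both genes the lowest ONC sample was well above the highest sham sample. On exon-exon reads alone Egr1, which has 1 intron, was at 1.29 and was not called (adjusted p = 0.244). Many stimuli other than neurotrophins induce these genes, and their level is no readout of receptor activity. Without ONC replicate 1 the calls over all 6 lists numbered 22 in place of 8, and those over all genes 2031 in place of 833.

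**Figure D5:**
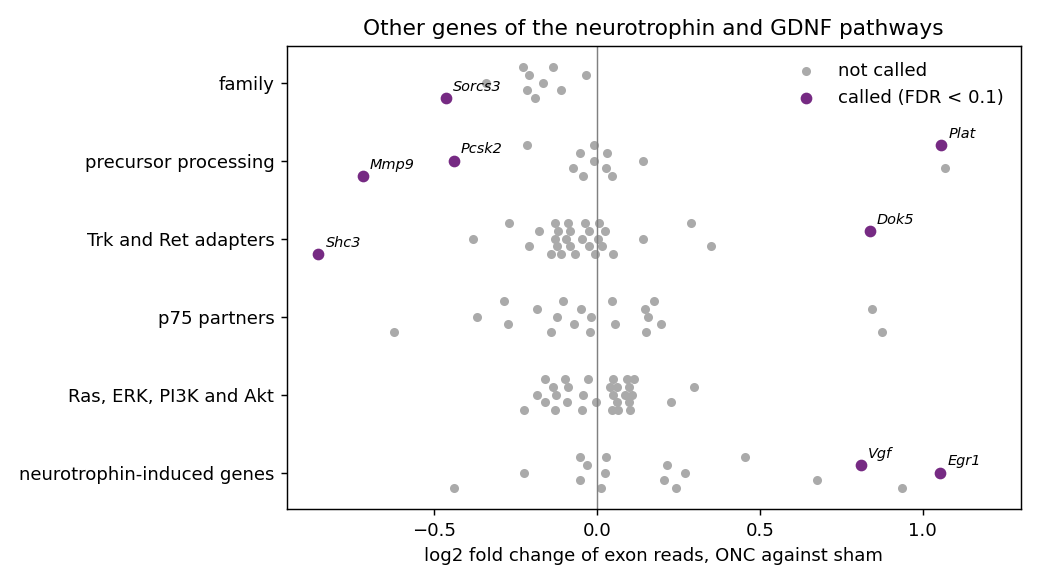
Log2 fold change of exon reads, ONC against sham (x axis), of the tested genes in each of 6 lists around the receptors (y axis); purple points with names passed the FDR limit of 0.1 and grey points did not. Called genes lie on both sides of 0, from Shc3 at -0.86 to Plat at 1.06.

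The pattern of each gene over the 6 samples was set beside those of 11615 genes with at least 50 exon reads in every sample. The gene most like Ntrk2 was Dcbld2 (Pearson r of log2 normalized counts 0.995), that most like Ntrk3 was Smad3 (0.993), and that most like Bdnf was Dus1l (0.991). For Gfra1 it was Zc3h3 (0.995) and for Ret Lmnb1 (0.989). Between 67 and 133 genes had r above 0.9 with each of these 5, and the 6 points share the library and its depth, so these likenesses are descriptions and are given without a test. No gene most like one of the 5 was itself called, beside 6.09% of all tested genes. As these genes were picked for likeness to genes that were not called, this was largely set beforehand.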

How the data were processed

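Per the labels, each sample was a pool of 6 retinas, prepared with the Illumina TruSeq RNA kit, and condition and replicate number came from the labels. Mapping was done by the authors in CLC Genomics Workbench, and they deposited, per gene, raw read counts on exons, on exon-exon junctions and on the whole gene, where an intact pair counts as 1. They also deposited RPKM values, the exon reads per kilobase divided by all reads on genes. The labels name mm9, but gene positions overlapped RefSeq GRCm38.p6 for 29864 of 29908 matched symbols, so GRCm38 was used. A pooled column of ONC means was left out.

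Total exon counts were kept where the mean RPKM of either group exceeded 0.3 (13670 genes) and compared with edgeR 4.0.16 in R 4.3.3 (TMM, glmQLFit, glmQLFTest, condition only, two-sided, Benjamini-Hochberg). The standard error is the log2 fold change divided by the square root of F. Intron counts were tested likewise after filterByExpr. Exon reads per sample were 17343945 to 20358008, and the biological coefficient of variation was 9.17%. The procedure was tested on simulated counts. Single values were compared by exact permutation tests. DESeq2 1.42.0, limma 3.58.1 on log2 RPKM (pseudocounts 0.1 and 1), Python 3.11.15 with numpy 2.4.6, pandas 2.3.3, scipy 1.17.1 and matplotlib 3.10.9 served for alternatives, tables and figures.

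The genes and lists were chosen with earlier results of these data known. Named are the 8 genes, their family ligands and receptors, called genes of the lists (at most 12, by size) and the gene most like each. Some genes that these rules select are not reported here, and they were left out of the lists. Samples with the same replicate number did not deviate together (r -0.06 to 0.01) and were not paired.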

Additional observations from a re-analysis of the deposited data

How the results depend on the processing

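With 3 pools a group, counts of calls moved strongly with the samples while directions of the main genes mostly held. Over all genes 833 calls became 227 with a fold change above 1.5, 515 at an FDR under 0.05, 1730 on division by all reads on genes and 380 on exon-exon reads (an alternative added after the data were seen), and 371 to 2031 when 1 sample was left out (371 without sham replicate 2, 400 without sham replicate 3, 2031 without ONC replicate 1, 435 without ONC replicate 2 and 452 without ONC replicate 3). Calls in the lists were 15 on division by all reads and 16 on total gene reads in place of 8, and 6 to 22 without 1 sample (22 without ONC replicate 1). Calls among the 6 tested genes stayed at 0, also without any 1 sample (0 to 0), except for 2 on total gene reads, Ntrk2 at -0.31 and Ntrk3 at -0.70. Gfra1 turned to 0.0945 on division by all reads, to 0.0920 and 0.0818 with limma and to 0.0426 on exon-exon reads, and ran from -0.0931 to 0.0114 without 1 sample. Nrtn turned to 0.0837, 0.11 and 0.0819 on the first 3 of these (-0.17 to 0.19 without 1 sample), and on exon-exon reads Ret was at -0.0233 (-0.0808 to 0.18 without 1 sample). Intron calls over all genes were 1297 with the scaling of the exon reads and 1108 without a filter in place of 361, and 0 to 913 without 1 sample (913 without sham replicate 1, 0 without sham replicate 2, 88 without sham replicate 3, 0 without ONC replicate 2 and 1 without ONC replicate 3). Those among the 8 genes were 0 to 2 without 1 sample. Bdnf intron reads were called with the scaling of the exon reads (-1.50). Gdnf turned to 0.0790 with the replicate block (-1.06 to 0.90 without 1 sample), and Ret intron reads ran from -0.73 to 0.0488. Intron values without 1 sample ran from -1.28 to -0.84 for Ntrk2 and from -1.37 to -0.79 for Ntrk3. With the replicate number as a block, 728 genes were called on exon reads and 389 on intron reads, with 0 and 2 among the 8 genes, and Sorcs3 was no longer called (adjusted p = 0.150). The cause of these moves was not tested, and some alternatives also hold fewer samples, genes or reads. Depth limits Ntf3, Gdnf, Ntf5, Artn and Gfra3, which had too few exon reads to test.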
